A study of Mus musculus with 12 samples.

Results

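Oligodendrocyte precursor genes were followed in 2 tissues of ageing C57BL/6 mice. The genes were 10 (Pdgfra, Gpr17, Ptprz1, Olig1, Olig2, Sox10, Cspg4, Vcan, Cspg5 and Tnr), taken by exact symbol from the 14663 named genes of the hippocampus table and the 29957 of the microglia table. Hippocampal microglia came from mice of 24 months and of 3 months, and whole hippocampus from mice of 18 months and of 6 months, with 3 libraries in each of the 4 groups. Whether each library is its own mouse or a pool, how the microglia were isolated and the sex of the mice are not given in the labels. The p-values therefore cover the spread between the libraries at hand, which may be technical. No treatment or mutation is named for any group. The comparisons ask whether the precursor genes differed between aged and mature hippocampus, and whether their transcripts were present in old and young microglia.

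Oligodendrocyte precursor cells are dividing glia that persist in the adult brain and give rise to the oligodendrocytes that wrap axons in myelin. They are recognised by the platelet-derived growth factor receptor alpha and by the proteoglycan NG2, which Cspg4 encodes, and their identity rests on the transcription factors Olig2 and Sox10. Several of the genes are not restricted to them. Olig1, Olig2 and Sox10 stay on in myelinating oligodendrocytes, Ptprz1 and Cspg5 are also made by astrocytes or neurons, Pdgfra by leptomeningeal fibroblasts, and Cspg4 by pericytes.

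In whole hippocampus the precursor genes were measured in every group, and no member passed the test of a difference between 18 and 6 months. All 10 passed the filter on low values (at least 1 normalized count in at least 3 of 6 libraries), and limma's moderated test on log2(normalized count + 1) called 0 of them at an adjusted p under 0.05. It called 0.00% of the 13491 tested genes. At an unadjusted p under 0.05 there were 0 members, against 5.37% of all tested genes. The mean log2 value, on which all counts of higher and lower genes here rest, was lower at 18 months for 7 of the 10, with a median log2 change of -0.43 over the members and of -0.04 over all tested genes, 52.8% of which were lower. In 1 of the 10 every older library lay above every younger one, against 5.03% of all tested genes, and in 0 every older library lay below, against 5.93%. In bulk tissue, fewer cells of a type and less RNA per cell cannot be told apart.

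A normalized count is a read count that the authors scaled between libraries. The lowest values of each hippocampus library fell on steps of 1.80, 1.22 and 0.776 normalized counts at 18 months and of 0.520, 1.80 and 0.634 at 6 months, which put 1 read at about that value. The implied depth was 548877, 795922 and 1291934 reads at 18 months and 1926348, 550344 and 1565441 reads at 6 months. Read numbers given here for a gene are its value over this step. They are approximate, and intervals made from them cover counting error only.

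The start regions of the receptor gene that defines the lineage and of the single member whose ages did not overlap are shown as reference for those genes. Both are the 250 bases before the start site in RefSeq's table for GRCm38.p6, plus strand, at chr5:75152001-75152250 for Pdgfra and chr1:159523519-159523768 for Tnr, with capitals marking an E-box (CANNTG), the motif of basic helix-loop-helix factors such as Olig1 and Olig2.
Pdgfra: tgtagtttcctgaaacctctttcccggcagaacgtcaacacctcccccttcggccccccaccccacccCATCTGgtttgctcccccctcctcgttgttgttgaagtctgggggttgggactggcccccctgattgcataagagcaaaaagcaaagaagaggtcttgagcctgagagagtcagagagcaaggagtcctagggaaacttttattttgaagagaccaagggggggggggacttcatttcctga
Tnr: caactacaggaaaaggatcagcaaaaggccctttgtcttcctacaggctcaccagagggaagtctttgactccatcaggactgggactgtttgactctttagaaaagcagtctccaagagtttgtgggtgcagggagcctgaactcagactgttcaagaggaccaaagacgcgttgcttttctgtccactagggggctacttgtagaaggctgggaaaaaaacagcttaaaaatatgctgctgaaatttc
The Pdgfra window held 1 E-box and the Tnr window 0, where 66.2% of 32851 promoter windows of this length held at least 1. The motif ACAAAG, a core bound by Sox factors, was searched on both strands and occurred once in the Tnr window, as in 16.5% of all windows, and 0 times in the Pdgfra window. The GC box GGGCGG and the TATA box TATAAA, also searched on both strands, were in neither window and in 32.7% and 12.4% of all windows. No motif overlapped an E-box. These matches are letters in a window and were not tied to binding.

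Among the receptors, Pdgfra had 27.3, 22.5 and 27.5 normalized counts at 18 months, against 33.9, 45.3 and 25.1 at 6 months. The 18 month libraries lay close together and within or just below the 6 month range. The log2 change was -0.38 ± 0.44 (SE; 95% interval -1.33 to 0.56; limma adjusted p = 0.937). Leaving out 6 month replicate 2 gave -0.18, and leaving out 6 month replicate 3 gave -0.59. Fibroblast and leptomeningeal markers, which include Col1a1 and Dcn, summed to 151.3, 510.4 and 167.4 normalized counts at 18 months and to 107.4, 223.0 and 325.3 at 6 months. Their order over the libraries was not that of Pdgfra, and their part in its level was not tested.

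Gpr17, a G protein-coupled receptor that marks precursors committing to differentiate, had 5.39, 30.8 and 37.2 normalized counts at 18 months, against 46.1, 35.8 and 47.9 at 6 months. The groups overlapped by a single library, and 18 month replicate 1 stood far below the other 5. That value was worth 3 reads, with an exact Poisson interval of 1.11 to 15.7 normalized counts, so its upper end stayed below the values of the other 5. The log2 change was -1.15 ± 0.61 (SE; 95% interval -2.47 to 0.17; limma adjusted p = 0.909), and -0.33 without 18 month replicate 1.

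Ptprz1 encodes a receptor tyrosine phosphatase that binds pleiotrophin and tenascins. It had 93.4, 93.0 and 110.7 normalized counts at 18 months, against 110.6, 80.3 and 97.5 at 6 months. The 2 ranges nearly coincided. Its log2 change was 0.05 ± 0.24 (SE; 95% interval -0.47 to 0.57; limma adjusted p = 0.989).

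**Figure D1:**
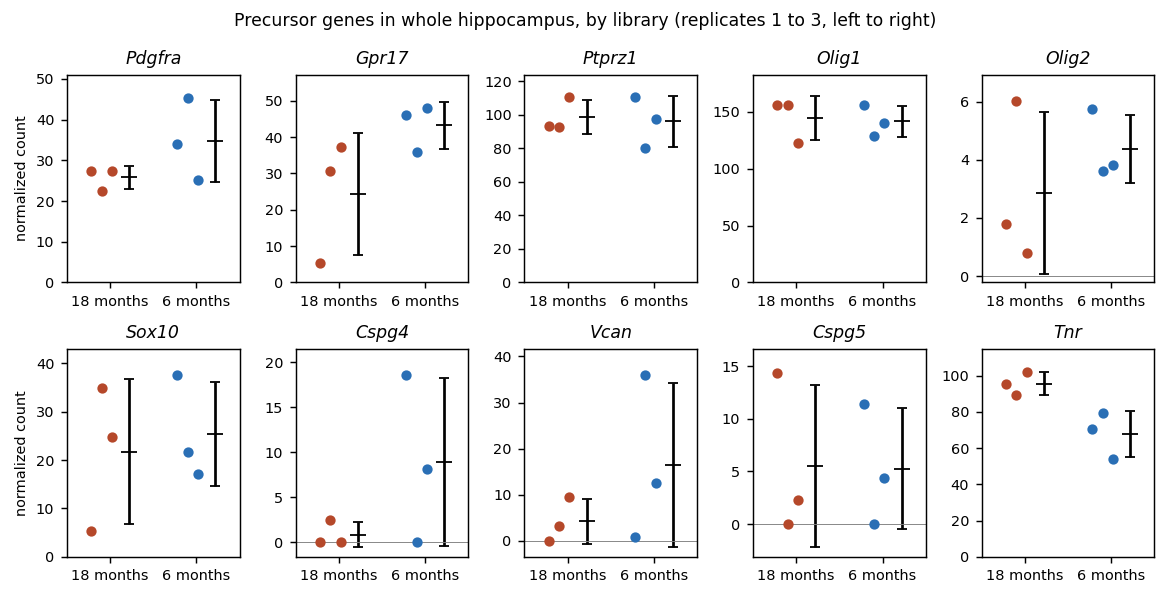
Normalized counts (vertical axis, linear, from about 0) of the 10 precursor genes in whole hippocampus at 18 months (red, left) and 6 months (blue, right). Points are libraries, replicates 1 to 3 from left to right, and bars are the mean ± SD (n = 3); Tnr is the gene whose 18 month libraries, at 89.2 to 101.9, all lay above the 6 month ones, at 53.8 to 79.2.

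The transcription factors gave a steady gene and a pair of weaker ones. Olig1 was the most abundant member in reads, with 156.1, 156.1 and 122.7 normalized counts at 18 months, against 156.2, 128.6 and 140.1 at 6 months. All 6 libraries lay in a narrow band. Its log2 change of 0.03 ± 0.21 (SE; 95% interval -0.42 to 0.47; limma adjusted p = 0.993) allows between a fold of 0.749 and of 1.39 on that scale.

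Olig2, its neighbour on chromosome 16 and the factor needed to specify the lineage, was near the limit of detection. It had 1.79, 6.01 and 0.776 normalized counts at 18 months, against 5.73, 3.61 and 3.81 at 6 months. Those values were worth about 6.91 reads over the 3 older libraries and 19.1 over the 3 younger ones, and 2 of the older libraries held a single read each. Per kilobase of the average transcript length in the microglia table, Olig1 averaged 71.8 normalized counts at 18 months and 70.2 at 6 months, and Olig2 1.19 at 18 months and 1.83 at 6 months. Over all 6 libraries Olig1 stood about 47.0 times higher per length. That ratio is rough, since Olig2 had 0 estimated counts in all 6 of the microglia libraries from which the lengths come. The log2 change of Olig2 was -0.70 ± 0.90 (SE; limma adjusted p = 0.943). Leaving out 18 month replicate 2 gave -1.25, leaving out 18 month replicate 3 gave -0.26, and a pseudocount of 10 gave -0.18.

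Sox10, the factor that switches on myelin genes and keeps oligodendroglial identity, had 5.38, 35.0 and 24.8 normalized counts at 18 months, against 37.5, 21.6 and 17.1 at 6 months. The low library was 18 month replicate 1, as for Gpr17, and its value was again worth 3 reads. The other 2 older libraries lay inside the 6 month range. The log2 change was -0.47 ± 0.68 (SE; limma adjusted p = 0.947). It was 0.28 without 18 month replicate 1, -0.97 without 18 month replicate 2 and -0.16 without 6 month replicate 1, and -0.25 with a pseudocount of 10.

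After Olig2, the proteoglycans were the thinnest members, and they were uneven between libraries. Cspg4 (NG2) had 0, 2.48 and 0 normalized counts at 18 months, against 18.6, 0 and 8.18 at 6 months. That was about 2.03 reads in the 3 older libraries together and 48.7 in the 3 younger ones. A count of 0 allows up to 3 reads, which is 5.39 and 2.33 normalized counts in the 2 older libraries at 0 and 5.39 in the younger one. The gene passed the filter with just 3 libraries, 2 of them of 6 months. Its log2 change, -1.90 ± 1.13 (SE; 95% interval -4.33 to 0.53; limma adjusted p = 0.913), was the lowest among the members. It depended on the pseudocount, at -3.08 with 0.1 and -0.69 with 10 in place of 1. Without 6 month replicate 2 it was -3.15 with an adjusted p of 0.999. In the authors' deposited table, whose fold changes run 6 over 18 months, Cspg4 had a log2 fold change of 3.49 ± 1.69 (SE), a p of 0.0388 and an adjusted p of 0.642. That table holds a p under 0.05 for 6.47% of its genes and an adjusted p under 0.05 for 36 of 11818 (0.305%), with 0.642 the smallest among the 9 members that have one. Mural markers such as Rgs5, also a mark of the pericytes that make NG2, summed to 229.1, 392.7 and 333.6 normalized counts at 18 months and to 251.4, 354.0 and 416.2 at 6 months, and their part was not tested.

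Vcan (versican), a large chondroitin sulfate proteoglycan of the precursor surface, had 0, 3.25 and 9.62 normalized counts at 18 months, against 0.925, 36.0 and 12.5 at 6 months. In normalized counts a single 6 month library carried most of the signal and another was nearly empty. In reads, 6 month replicates 2 and 3 held about 20.0 and 19.7, and replicate 1 about 1.78. The log2 change was -1.47 ± 1.18 (SE; limma adjusted p = 0.917). It was -0.52 without 6 month replicate 2, -0.55 without 18 month replicate 1, -2.26 without 18 month replicate 3 and -2.65 without 6 month replicate 1. With pseudocounts of 0.1 and 10 it was -2.39 and -0.71.

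Cspg5 (neuroglycan C), a transmembrane proteoglycan with a growth factor-like domain, had 14.3, 0 and 2.31 normalized counts at 18 months, against 11.4, 0 and 4.40 at 6 months. Each age held a library at 0. The interval of its log2 change ran from -2.67 to 2.41 around -0.13 ± 1.18 (SE; limma adjusted p = 0.994), although the linear mean was 5.54 at 18 months and 5.26 at 6 months. With each library left out in turn it ran from -1.16 to 0.81.

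Tnr (tenascin-R), a matrix glycoprotein of perineuronal nets and of nodes of Ranvier made by oligodendrocytes, their precursors and some neurons, was steadier between libraries of an age. It had 95.4, 89.2 and 101.9 normalized counts at 18 months, against 70.3, 79.2 and 53.8 at 6 months. All 3 older libraries lay above all 3 younger ones, the case counted above. The means were 95.5 ± 6.35 at 18 months and 67.8 ± 12.9 at 6 months (SD, n = 3 each). The log2 change of 0.50 ± 0.26 (SE; 95% interval -0.06 to 1.07) did not pass (limma adjusted p = 0.909), and it stayed between 0.35 and 0.62 with each library left out in turn.

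**Figure D2:**
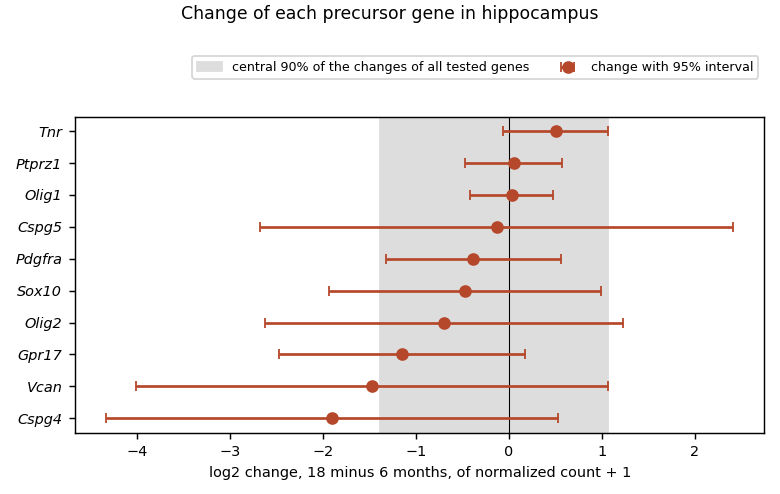
Log2 change of each precursor gene, 18 minus 6 months, on the log2(normalized count + 1) scale (points), with its 95% interval from limma (bars); the grey band spans the central 90% of the changes of all 13491 tested genes. Every interval includes 0, and the intervals of Olig1, Ptprz1, Tnr and Pdgfra are the narrowest.

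The members did not move as a block across libraries. In 18 month replicate 1, Vcan, Gpr17, Sox10 and Cspg4 lay 2.57, 2.21, 1.74 and 1.55 log2 units below their own means, while Cspg5 lay 1.98 above. Olig1, Ptprz1 and Pdgfra stayed within 0.13, 0.05 and 0.11 of theirs. Summed over all 10 members, the libraries held 399.0, 438.3 and 437.5 normalized counts at 18 months, against 491.2, 430.4 and 410.4 at 6 months. In that sum the ages overlapped and 18 month replicate 1 was the lowest by a small margin. Most of it lay in Olig1, Ptprz1 and Tnr. Without these genes the sum ran from 54.2 (replicate 1) to 102.2 at 18 months and from 119.0 to 154.1 at 6 months, without overlap. The genes left out are the 3 members with a higher mean at 18 months, so their removal favours a lower sum at that age. The 14 other precursor markers listed, 12 of them in the table, also had their lowest sum in 18 month replicate 1. It was 111.2, with 211.2 and 155.4 in the other older libraries, against 219.0, 183.8 and 210.5 at 6 months. The 12 markers of mature oligodendrocytes did not: they summed to 4684.7, 4472.6 and 5248.8 at 18 months and to 4839.3, 4351.5 and 4531.2 at 6 months. That library and 6 month replicate 2 were the shallowest, at 548877 and 550344 implied reads, and the part of depth was not tested.

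**Figure D3:**
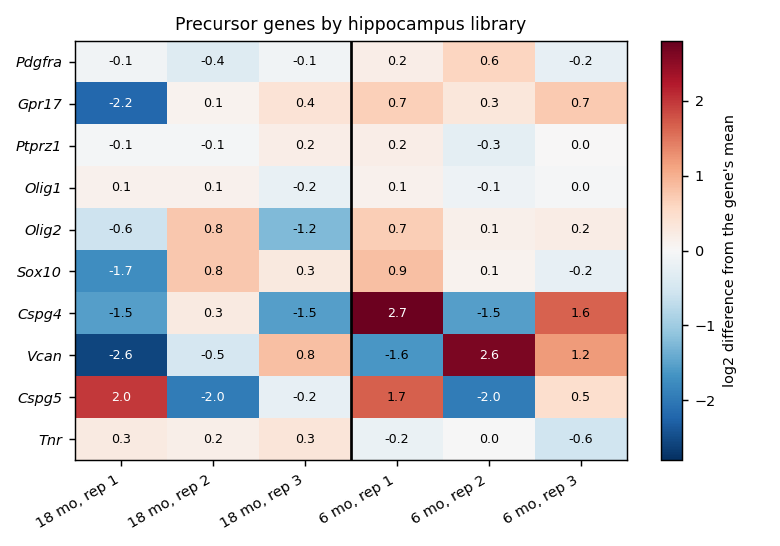
Log2 difference of each precursor gene from its own mean over the 6 hippocampus libraries (colour and printed value; rows are genes, columns are libraries, 18 months left of the line). Gpr17, Sox10, Cspg4 and Vcan are low together in 18 month replicate 1, where Cspg5 is high and Olig1, Ptprz1 and Pdgfra are near their means.

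The profile of Pdgfra over the 6 libraries was set against 4804 tested genes of a mean log2 level within 1 of its own. The closest by root mean square distance of centred log2 values were Ppp4c, a phosphatase subunit (0.0911), Slc6a11, a GABA transporter of astrocytes (0.120), and Fam63b (0.123), where the median gene was at 0.603. Of the precursor genes in that range, Sox10 was at 0.892 and Gpr17 at 1.01, ranks 4113 and 4392. The closest genes are simply the lowest of 4804 distances over 6 libraries, and shared regulation was not tested. The distance was not scaled for the spread of each gene, and Sox10 and Gpr17 were each worth about 3 reads in 18 month replicate 1.

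Around the members, other genes of the lineage and its matrix were also read from the same fit, and 0 genes of these lists were called. The further precursor markers had a median log2 change of -0.40, and 8 of the 12 averaged lower in the older libraries. Sox6, a factor that holds precursors undifferentiated, had 0, 9.60 and 4.25 normalized counts at 18 months, against 20.6, 9.81 and 13.5 at 6 months, without overlap (log2 change -1.97 ± 0.96, SE; limma adjusted p = 0.909). Rlbp1, a retinoid-binding protein, did not overlap either, with 23.4, 14.3 and 27.1 normalized counts at 18 months, against 44.4, 29.1 and 36.3 at 6 months (log2 change -0.76 ± 0.47, SE; limma adjusted p = 0.913). These were 2 of the 12, against 5.93% of all tested genes with every older library below.

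Of the 13 lineage transcription factors, 8 had a higher mean and 5 a lower one (median log2 change 0.28). Sox11, a factor of immature neural cells, had 52.1, 53.3 and 62.7 normalized counts at 18 months, against 31.0, 49.97 and 46.5 at 6 months (log2 change 0.41 ± 0.34, SE; limma adjusted p = 0.918). Newly formed oligodendrocyte markers had a median of -0.19 with 7 of 10 lower, led by the kinase gene Fyn (-0.79 ± 0.44, SE; limma adjusted p = 0.909). Mature oligodendrocyte markers had a median of 0.16 with 7 of 12 higher. Among them Hapln2, a link protein of the nodal matrix, had 23.9, 44.2 and 73.8 normalized counts at 18 months, against 18.8, 22.8 and 17.8 at 6 months. Its log2 change was 1.08 ± 0.49 (SE; limma adjusted p = 0.909).

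Among the partners of the members, the median log2 change was 0.32 over 5 platelet-derived growth factor genes, with Pdgfa, the main ligand of the receptor, at 0.73 ± 0.52 (SE; limma adjusted p = 0.917). It was -0.16 over 5 tested lecticans and matrix partners, and -0.17 over 6 ligands and partners of Ptprz1. In the last list the cell adhesion gene Nfasc did not overlap between ages (log2 change -0.40 ± 0.24, SE; limma adjusted p = 0.913), while Ptn, which encodes pleiotrophin, was at -0.09 ± 0.24. Astrocyte markers had a median of -0.11 with 8 of 12 lower. Gjb6 and Gfap, the 2 of them at an unadjusted limma p under 0.05, were higher at 18 months. In the authors' deposited table, 6 over 18 months, Gjb6 had a log2 fold change of -1.18 ± 0.29 (SE). Its Wald adjusted p there was 0.0261.

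**Figure D4:**
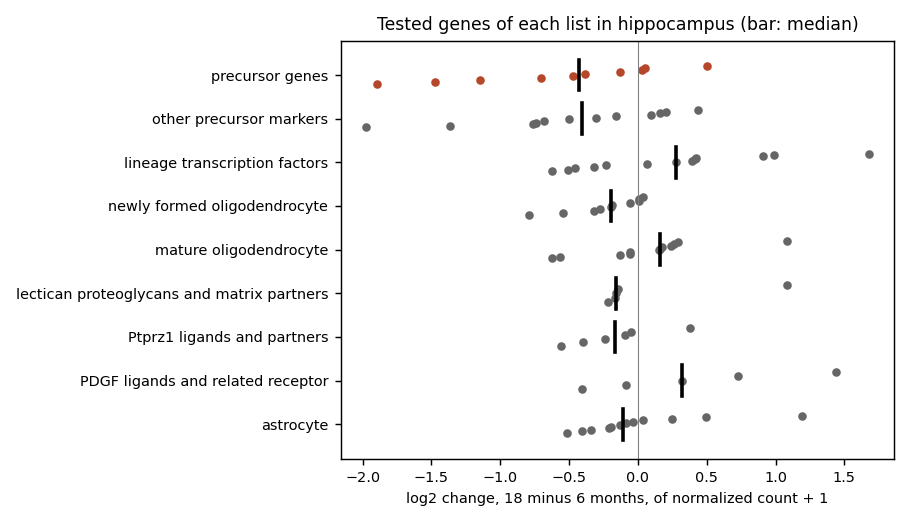
Log2 change, 18 minus 6 months, of each tested gene (points) of the precursor list (red) and of 8 related lists (grey) on the log2(normalized count + 1) scale, with a bar at each list's median. The precursor genes (median -0.43) and the other precursor markers (median -0.40) lie mostly left of 0. The mature oligodendrocyte markers (median 0.16) lie on both sides, and no gene shown passed the limma test.

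In the microglia the precursor genes were close to absent at both ages. The libraries held 9696273, 10017506 and 10316037 estimated counts at 24 months and 13898512, 8068023 and 14217142 at 3 months. The 12 microglial markers summed to 55325 to 72999 CPM (estimated counts relative to the TMM-scaled library size) at 24 months and to 74019.8 to 80039.6 CPM at 3 months. Gpr17, Olig2, Sox10, Cspg4, Vcan and Cspg5 had 0 estimated counts in all 6 libraries. A count of 0 allows up to 3 counts, or 0.291 to 0.309 CPM at 24 months and 0.211 to 0.372 CPM at 3 months on the unscaled total. No member (0 of 10) passed edgeR's filter, so none was tested between the ages. Without the filter 4 members had a value, and the smallest adjusted p among them was 0.718 (edgeR's quasi-likelihood test). With the filter, edgeR called 0.00% of 10663 genes, and 5.53% had an unadjusted p under 0.05.

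The receptor Pdgfra had 4.58, 1.36 and 0 estimated counts at 24 months, against 9.72, 0 and 6.42 at 3 months. Each age held a library at 0, and neither was higher throughout. Ptprz1 had 0, 14.3 and 1.004 estimated counts at 24 months, against 1, 0 and 0 at 3 months, so nearly all of it lay in 24 month replicate 2.

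Olig1 was found in 24 month replicate 2 only, with 30 estimated counts there and 0 in the other 5 libraries. That is 2.99 CPM on the unscaled total (exact binomial 95% interval 2.02 to 4.28, counting error only). The hippocampus table was normalized separately, with columns that sum to 974126 to 1002529, and there Olig1 had 122.7 to 156.2 normalized counts. Tnr was the member with a count in every microglia library, at 3.79, 14.04 and 8.73 estimated counts at 24 months and at 2.23, 5.31 and 10.7 at 3 months. The ranges overlapped, and in the authors' deposited table, where this comparison runs 24 over 3 months, its log2 fold change was 0.81 ± 1.25 (SE) with an adjusted p of 0.910. That table has an adjusted p under 0.05 for 2.01% of its genes.

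Transcripts of several other brain cells stood in the same library as Olig1 and Ptprz1. In 24 month replicate 2, Bcas1, a marker of newly formed oligodendrocytes, had 86 estimated counts and Nkx2-2, a factor of the oligodendrocyte lineage, 6, and both were at 0 elsewhere. Ptn had 86 there and 0 elsewhere. Genes of other cells were also highest in it. The astrocyte connexin Gja1 had 34 there and 0 elsewhere, the endothelial claudin Cldn5 had 148 there and at most 1 elsewhere, and the synaptic vesicle gene Syt1 had 65 there and at most 7 elsewhere. Mog, Opalin and Sox6 were at 0 in it, as in every other microglia library. Other defining genes were at 0 in it but had counts at 3 months. The astrocyte marker Mlc1 had 1, 47 and 110 estimated counts at 3 months. Aqp4, also an astrocyte marker, had 28.7 in 3 month replicate 3, and the mature oligodendrocyte marker Mal had 40 in 3 month replicate 2. Of the markers with any count, 24 month replicate 2 was the highest for 7 of 11 astrocyte, 5 of 10 neuron, 4 of 10 endothelial, 4 of 7 mural and 2 of 7 neutrophil genes, for 2 of 7 mature oligodendrocyte genes, and for 0 of 6 fibroblast and 0 of 3 choroid plexus genes. In the lists that hold Bcas1 and Nkx2-2 it was the highest for 4 of 9 newly formed oligodendrocyte genes and 3 of 9 other precursor markers. Of the same newly formed oligodendrocyte genes, 3 were highest in 3 month replicate 1. For the lineage transcription factors 24 month replicate 2 was the highest for 0 of 8. It was the highest for 14.6% of all 17615 genes with a count. Some of these markers also have counts in every microglia library. The part of such cells in the counts of Olig1 and Ptprz1 was not tested. Without that library the 24 month group held 0 counts of Olig1 and about 1 of Ptprz1.

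Summed over the list, mature oligodendrocyte markers did not single that library out, at 165.7, 164.5 and 222.4 CPM at 24 months and 201.8, 168.2 and 149.9 CPM at 3 months. These sums lay mostly in Mag and Cnp, which had 327.0 or more estimated counts in every library. Endothelial markers summed to 51.5, 138.9 and 66.4 CPM at 24 months and to 23.5, 45.4 and 24.6 CPM at 3 months. Astrocyte markers summed to 343.0, 463.7 and 334.0 CPM at 24 months and to 128.2, 240.5 and 273.3 CPM at 3 months. Slc1a3 alone had 295.6, 381.6 and 284.0 CPM at 24 months and 109.8, 223.1 and 245.5 CPM at 3 months. Among endothelial markers, Pecam1 had 35.8, 64.9 and 66.0 CPM at 24 months and 11.9, 44.6 and 23.5 CPM at 3 months. Both genes had counts in every library, and what these sums say of other cells was not tested.

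**Figure D5:**
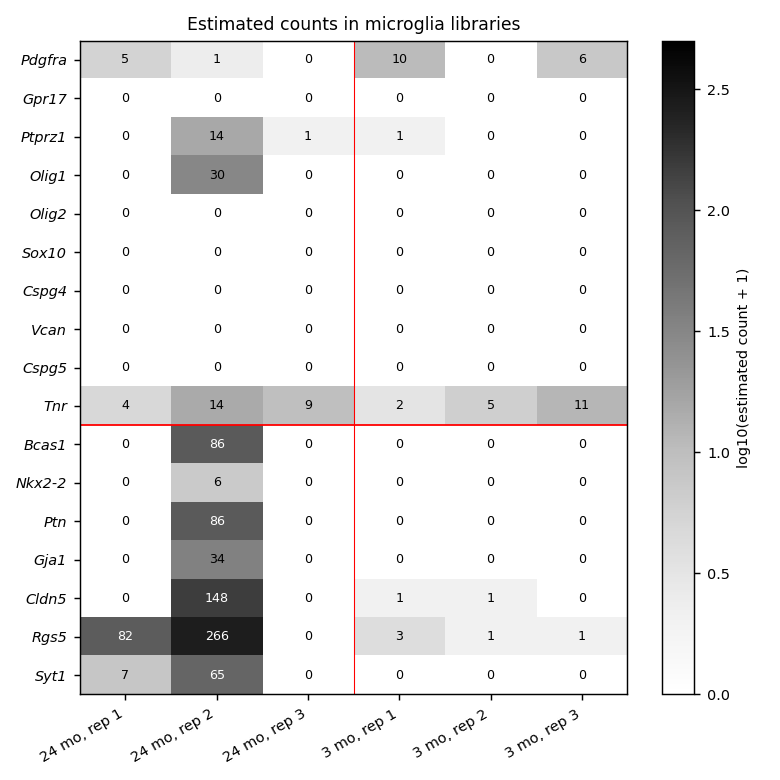
Estimated counts (printed, rounded; shade is log10 of the count + 1) of the 10 precursor genes (above the red line) and of 7 genes of other brain cells chosen after their values were seen (below it) in the 6 microglia libraries, 24 months left. Of the 10 precursor genes 6 are at 0 throughout, and the 30 counts of Olig1 stand in 24 month replicate 2 beside those of Bcas1, Ptn and Cldn5.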

How the data were processed

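Trizol RNA was primed with oligo-dT, amplified after template switching and tagmented, per the labels' protocols, which name no strand-keeping kit. Of software, the tools kallisto, DESeq and DESeq2 are listed in the submitters' processing notes, with 2 builds (mm10, GRCm39) and no roles or versions. The authors deposited TPM (not used), estimated counts and average lengths for each microglia library and gene. For each tissue the authors deposited normalized counts (a signal), log2 fold changes with standard errors, a Wald score, and p-values, per the file headers. Microglia counts were rounded and tested with edgeR 4.0.16 (quasi-likelihood, TMM, filterByExpr); DESeq2 1.42.0 was an alternative. Hippocampus values hold no counts: only 40.7% to 55.9% of low values were whole multiples of a read (tolerance 0.1), so limma 3.58.1 with a mean trend was used on log2(value + 1), which understates the change of low genes. Tests were two-sided, Benjamini-Hochberg adjusted over all genes, and run in R 4.3.3 after checks on simulated data.

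The members and gene lists were chosen with earlier results of these data known. Named genes are all members, up to 4 of each list by smallest p, and those a count turns on; genes of other cells in 24 month microglia replicate 2 were picked after their values were seen. The entry without a gene name (0.0233% to 0.0771% of a library) was left out, and 0 sample columns were unmatched. Promoters came from RefSeq's table for 6 of the 10 members that it matched. A further gene is not reported here. Replicate numbers did not pair the libraries.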

Additional observations from a re-analysis of the deposited data

How the results depend on the processing

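In the hippocampus, no alternative called a precursor gene, with another pseudocount (0.1 or 10), no filter, no mean trend, median-ratio rescaling, each library left out, or the replicate number as a block. Over all genes limma called 0 to 1 with a library left out and 1 without the mean trend. Precursor genes at an unadjusted p under 0.05 numbered 0 to 1 with a library left out, and that was Gpr17 without 18 month replicate 2 or 3, Vcan without 6 month replicate 1 and Cspg4 without 6 month replicate 2. Of 117 alternative values of the 10 log2 changes, 108 kept their sign and 9 did not, each with a library left out. Those were in Cspg5 (-1.16 to 0.81), Olig1 (-0.038 to 0.14), Ptprz1 (-0.072 to 0.16) and Sox10 (-0.97 to 0.28), and the cause was not tested. Cspg4 failed the filter without 18 month replicate 2, 6 month replicate 1 or 6 month replicate 3. It has no value in those settings and is not among the 117 there.

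In the microglia edgeR called 0 genes in the main setting and 0 to 55 with a library left out (55 without 24 month replicate 3), and DESeq2 called 251. Precursor genes had a value only with DESeq2 and without the filter, 4 in each, and 0 of them were called; in the other microglia settings none was tested. At an unadjusted p under 0.05 edgeR had 590 genes. With the replicate block, edgeR called 0 genes, limma called 0 genes and 0 of the 10 precursor genes, and no precursor gene entered the microglia fit; same-numbered libraries deviated together with correlations of 0.00941 to 0.0142 in hippocampus and of -0.0272 to 0.0648 in microglia. Olig2, Cspg4, Cspg5 and Vcan rest on few reads, about 6.91, 2.03, 10.9 and 15.1 over the 3 libraries of 18 months; the part of depth in their spread was not tested.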

Other observations

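Choroid plexus markers, which include Ttr and Folr1, differed widely between hippocampus libraries of the same age. They summed to 3547.9, 10912.2 and 242.0 normalized counts at 18 months and to 115.0, 6926.2 and 2301.8 at 6 months. In the microglia, Rlbp1 and Lims2, both on the lists for the oligodendrocyte lineage, had 164 and 191 estimated counts in 24 month replicate 1 and 0 in the other 5 libraries. The same library held 2372 CPM of neutrophil markers, against at most 27.9 CPM in any other, and 292.0 CPM of mural markers, against at most 55.6 CPM. It had 0 counts of Olig1 and Ptprz1, and the source of its Rlbp1 and Lims2 counts was not tested.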
